A study of Mus musculus with 12 samples.

Results

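The genes described here are 10 that mark tissue macrophages and the macrophages of erythroid islands, chosen by name: Cd68, Mrc1, Cd163, Siglec1, C1qa, C1qb, C1qc, Lyz2, Slc40a1 and Hmox1. Each was a single row of the deposited count table, so 10 of its 23358 rows are described, and all 10 passed the filter on low counts that left 16190 genes for testing. The samples were 12 pieces of mouse skull taken at postnatal day 3, each holding the frontal bone with the nasal bone and with the coronal and frontonasal sutures. The mice were of 2 strains, C57BL/6 or BALB/c, and either wild type or heterozygous for the C342Y change in Fgfr2, which models Crouzon syndrome, a disorder of early suture fusion. Each of the 4 combinations had 3 samples: C57BL/6 wild type (replicates 1, 2 and 3), C57BL/6 Fgfr2 C342Y/+ (replicates 4, 5 and 6), BALB/c wild type (13, 14 and 15) and BALB/c Fgfr2 C342Y/+ (16, 17 and 18). The tissue of every group was digested with collagenase and trypsin before RNA was extracted; the labels give no sex. The questions were how the mutation changed these genes on each background and whether the backgrounds differed.

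Macrophages are phagocytes that clear dying cells, recycle iron and shape bone. In an erythroid island a central macrophage holds on to maturing red cell precursors, takes up the nuclei they shed and returns iron from heme to the blood through ferroportin, the product of Slc40a1. Osteoclasts, the cells that resorb bone, are built from precursors of the same lineage and need the same growth factor, Csf1, so several macrophage genes are also active in osteoclasts.

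Promoters are shown for Cd68, Cd163 and Lyz2, which were called for genotype in C57BL/6 and had an entry in the promoter table, and for a pair of neighbouring complement genes that did not pass the genotype test (C1qb and C1qc). Of the 10 genes, 6 matched the promoter table (RefSeq, GRCm38.p6), namely these 5 and Mrc1. Siglec1, C1qa, Slc40a1 and Hmox1 did not match. Each sequence is the 250 bases before the annotated start, read 5′ to 3′ on the gene's strand: Cd68 at chr11:69666171-69666420 (minus strand), Cd163 at chr6:124304401-124304650 (plus strand), Lyz2 at chr10:117282273-117282522 (minus strand), C1qb at chr4:136886201-136886450 (minus strand) and C1qc at chr4:136892915-136893164 (minus strand). Capitals mark words found by search on either strand.
Cd68: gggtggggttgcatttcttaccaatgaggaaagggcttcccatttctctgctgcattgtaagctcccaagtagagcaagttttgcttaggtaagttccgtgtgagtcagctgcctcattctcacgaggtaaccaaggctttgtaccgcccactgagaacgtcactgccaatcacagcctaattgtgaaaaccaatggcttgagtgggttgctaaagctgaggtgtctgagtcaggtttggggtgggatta
Cd163: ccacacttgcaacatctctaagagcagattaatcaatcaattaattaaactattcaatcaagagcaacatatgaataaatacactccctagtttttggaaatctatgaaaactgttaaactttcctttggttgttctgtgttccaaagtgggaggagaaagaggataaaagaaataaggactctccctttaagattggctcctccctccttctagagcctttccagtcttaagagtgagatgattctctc
Lyz2: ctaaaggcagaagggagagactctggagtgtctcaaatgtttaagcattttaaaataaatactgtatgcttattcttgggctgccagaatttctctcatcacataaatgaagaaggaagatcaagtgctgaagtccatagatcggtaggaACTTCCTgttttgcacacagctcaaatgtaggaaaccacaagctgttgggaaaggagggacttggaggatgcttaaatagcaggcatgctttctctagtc
C1qb: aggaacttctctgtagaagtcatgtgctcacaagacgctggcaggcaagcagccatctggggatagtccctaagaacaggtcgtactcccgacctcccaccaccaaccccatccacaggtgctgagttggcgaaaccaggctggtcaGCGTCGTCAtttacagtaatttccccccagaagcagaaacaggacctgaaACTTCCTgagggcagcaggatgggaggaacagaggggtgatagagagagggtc
C1qc: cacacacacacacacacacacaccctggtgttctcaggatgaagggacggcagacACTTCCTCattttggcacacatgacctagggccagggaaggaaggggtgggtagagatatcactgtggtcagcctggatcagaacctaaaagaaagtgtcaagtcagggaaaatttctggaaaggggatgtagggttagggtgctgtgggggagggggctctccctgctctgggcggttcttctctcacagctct

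The words searched were a form of the site recognised by PU.1 (GAGGAAG), the core of the antioxidant response element (TGACNNNGC) and the E-box CACGTG. PU.1 is the factor encoded by Spi1 that drives the macrophage lineage. A word of the wider ETS family (AGGAAGT), which can overlap the PU.1 word, was added after the promoters had been seen. The PU.1 word occurred in 2 of the 6 promoters, Mrc1 and C1qc, against 10.6% of 32851 promoters of the same length. The ETS word occurred in 4, Mrc1, C1qb, C1qc and Lyz2, against 7.69%. Because the ETS word was chosen after these promoters had been seen, that comparison cannot show enrichment. In C1qc both words share bases. The antioxidant word occurred in C1qb (10.2% of all promoters) and the E-box in 0 of the 6 (6.02%). The promoters of Cd68 and Cd163 held none of the 4 words in this window. Shorter or other forms of these sites were not searched.

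The libraries held from 27181658 to 46521546 counts each, and every count was even. Nothing in the labels says whether replicates came from separate animals, so p-values measure the spread between these samples, which may in part be technical; the Y-linked counts below differ between samples of 3 groups. The run names in the sample descriptions put each strain on its own flow cell, so strain and flow cell cannot be told apart. Counts do not tell the mutant allele of Fgfr2 from the normal one, and the genotype labels were not checked. Osteoblast genes summed to 67000 to 154000 CPM (counts scaled to a common library total, with TMM factors), the highest of the marker lists. Genes of olfactory and ciliated epithelium summed to 246 to 662 CPM in C57BL/6 wild type and 156 CPM in C57BL/6 mutant replicate 4. They summed to 2.96 and 3.56 CPM in mutant replicates 5 and 6 and to 1.98 to 3.21 CPM in BALB/c, where Bpifa1, Sec14l3, Cyp2g1 and Tekt1 were at 0 in every wild type sample. Muscle genes summed to 398 CPM in BALB/c mutant replicate 16, 70.9 CPM in C57BL/6 wild type replicate 2 and 24.8 CPM in BALB/c mutant replicate 17. In every other sample they summed to 1.41 to 8.73 CPM. All 3 C57BL/6 wild type samples held 5164 to 6018 Y-linked counts. In each other group 1 sample of 3 held 4846 to 6876 (replicates 6, 15 and 16). The other 6 samples held at most 60, with 12312 to 25578 counts of the female-specific Xist. Samples with Y-linked counts held 28 to 124 Xist counts. By these counts all 3 C57BL/6 wild type samples were male, against 1 of 3 C57BL/6 mutants. Sex was therefore not balanced between the genotypes in C57BL/6. The part of these differences in the results was not tested beyond the fits given below.

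The 10 genes took up between 0.0283% and 0.0399% of the counts of a sample. Between genes, levels are compared as the authors' RPKM, which divides by coding length. Cd68, a glycoprotein of lysosomal membranes in phagocytes, had the highest median over the 12 samples (67.4 RPKM), followed by Lyz2 (lysozyme, 60.8 RPKM) and Hmox1 (heme oxygenase, 22.0 RPKM). C1qa (10.2 RPKM), C1qb, C1qc and Slc40a1 (10.1 RPKM each) lay together, and their ranges over samples overlapped. Mrc1, the mannose receptor, had a median of 5.34 RPKM and Cd163, the receptor for haemoglobin bound to haptoglobin, 1.56 RPKM. Siglec1, the sialic acid receptor of resident macrophages, was lowest at 0.367 RPKM, above 16.6% of the genes tested. All 10 genes had counts in all 12 samples, the lowest being 46 counts of Siglec1 in BALB/c wild type replicate 13. Adgre1, which encodes the macrophage surface marker F4/80, was also present, at 7.53 to 12.1 CPM. Other genes of resident macrophages ranged widely. Stab1, a scavenger receptor also made by endothelium, had group means of 107 to 131 CPM, Folr2 ranged from 1.5 to 2.96 CPM and Lyve1 from 1.7 to 7.19 CPM. Timd4 was at 0.293 to 0.768 CPM, and Vsig4 was at 0 in all 6 C57BL/6 samples and at most 0.0984 CPM in BALB/c.

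**Figure D1:**
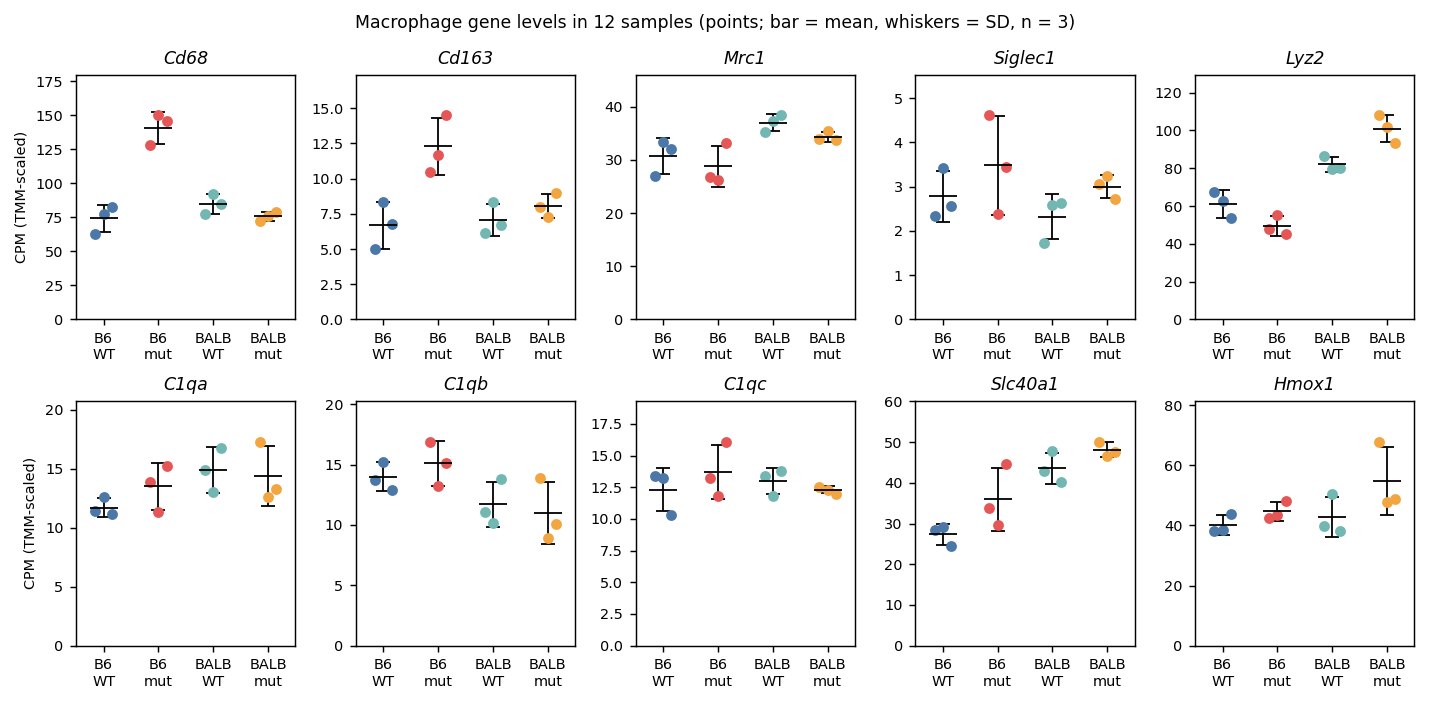
Levels of the 10 macrophage genes in CPM (vertical axes, starting at 0) in the 4 groups of 3 samples; B6 is C57BL/6, BALB is BALB/c, WT is wild type and mut is Fgfr2 C342Y/+. Points are samples, bars are means and whiskers are SD. Cd68 lies at 128 to 150 CPM in C57BL/6 mutants and at 62.8 to 92.1 CPM in the other samples.

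In C57BL/6, mutants had more Cd68, Cd163 and Slc40a1 and less Lyz2 than wild type samples, while Mrc1, Siglec1, the 3 C1q genes and Hmox1 did not pass the test. The test was edgeR's quasi-likelihood test with Benjamini-Hochberg adjustment over all genes tested; genes with an adjusted p under 0.05 count as called. It called 3 of the 10 genes higher and 1 lower, 4 in all, against 23.9% of all genes tested (11.3% higher and 12.6% lower). CPM ranges of the groups were separate for 3 of the 10 genes, all higher in mutants, against 41.6% of all genes (19.7% higher). The median log2 fold change of the 10 genes was 0.18 and that of all genes 0. In bulk tissue, more cells of a type and more RNA of a gene per cell cannot be told apart. In BALB/c, mutant against wild type, none of the 10 genes was called by edgeR, against 0.136% of all genes (22 genes, 0.0926% higher and 0.0432% lower), and by none of 7 alternatives, DESeq2 among them. At an unadjusted p under 0.05 there were 2, Lyz2 and Hmox1, against 11.7% of all genes. The median log2 fold change there was 0.04, against 0 for all genes, and ranges were separate for 2 of the 10 genes, Siglec1 and Lyz2, both higher in mutants, against 20.0% of all genes (9.93% higher).

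Among the surface and lysosomal receptors, Cd68 (chromosome 11, 69664371 to 69666062) differed most. Its levels were 62.8, 77.5 and 82.3 CPM in C57BL/6 wild type replicates 1, 2 and 3 and 128, 150 and 146 CPM in mutant replicates 4, 5 and 6. In BALB/c they were 77.6, 92.1 and 84.7 CPM in wild type and 72.2, 76.1 and 78.8 CPM in mutant samples. The C57BL/6 mutants stood above all the other 9 samples, and the other groups overlapped one another. The C57BL/6 mean was 74.2 CPM ± 10.2 (SD, n = 3) without the mutation. With it the mean was 141 CPM ± 11.8 (SD, n = 3), and the log2 fold change was 0.93 (SE 0.0999, 95% interval 0.71 to 1.15, adjusted p 0.000243, edgeR). In BALB/c the log2 fold change was -0.16 (SE 0.0996, interval -0.38 to 0.05, adjusted p 0.584). The difference between the genotype effects, BALB/c minus C57BL/6, was -1.09 (SE 0.141, adjusted p 0.00165). This test of the interaction, from which any fixed flow cell effect drops out, called 2 of the 10 genes, Cd68 lower and Lyz2 higher, against 10% of all genes (4.58% lower and 5.46% higher), with a median of -0.22 over the 10 genes and 0.01 over all genes. Cd68 kept both calls in every fit that left out 1 library and under every alternative, DESeq2, limma-voom and a Y-linked term included. With total counts in place of TMM scaling its C57BL/6 fold change was 0.74, where the median over all genes moved by -0.196. Without mutant replicate 4, the mutant library with epithelial genes, it was 0.99 (adjusted p 3.23e-05).

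Cd163 (chromosome 6, 124304651 to 124330527) was also highest in C57BL/6 mutants, at a lower level. C57BL/6 wild type samples held 4.99, 8.31 and 6.75 CPM and mutants 10.5, 11.7 and 14.5 CPM. BALB/c wild type samples held 6.16, 8.34 and 6.73 CPM and mutants 7.97, 7.28 and 8.96 CPM. The C57BL/6 mutants were again above all the other samples, and the other 3 groups overlapped. The log2 fold change was 0.87 in C57BL/6 (SE 0.190, interval 0.46 to 1.29, adjusted p 0.00839, edgeR) and 0.19 in BALB/c (SE 0.191, interval -0.23 to 0.60, adjusted p 0.771). Unlike for Cd68, the difference between the strains' effects did not pass (-0.69, SE 0.269, adjusted p 0.116). The C57BL/6 call held without each library in turn and was lost in the fit of the 6 C57BL/6 samples alone (adjusted p 0.0543).

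Mrc1 and Siglec1, which mark resident macrophages together with Cd163, did not pass the genotype test in either strain. Mrc1 (chromosome 2, 14229414 to 14332023) held 26.9, 33.3 and 32.1 CPM in C57BL/6 wild type and 26.8, 26.3 and 33.2 CPM in C57BL/6 mutant samples. Its BALB/c values were 35.3, 37.4 and 38.4 CPM in wild type and 33.9, 35.5 and 33.7 CPM in mutants. Genotype ranges overlapped in both strains, with log2 fold changes of -0.10 (interval -0.31 to 0.11, adjusted p 0.495) and -0.11 (interval -0.32 to 0.10, adjusted p 0.732), both by edgeR. With total counts in place of TMM scaling Mrc1 was called lower in C57BL/6 mutants (-0.29, adjusted p 0.0236). Siglec1 (chromosome 2, 131069220 to 131086765) ranged from 1.73 to 4.61 CPM over the 12 samples, and its intervals were wide: -0.25 to 0.90 around 0.32 in C57BL/6 (adjusted p 0.389) and -0.21 to 0.95 around 0.37 in BALB/c (adjusted p 0.659). A change of the size seen in Cd163 in C57BL/6 lies inside the interval of Siglec1 in each strain. Mrc1 overlaps Mir511 and Cd163 overlaps Gm52877, so reads of those transcripts could be counted with them.

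**Figure D2:**
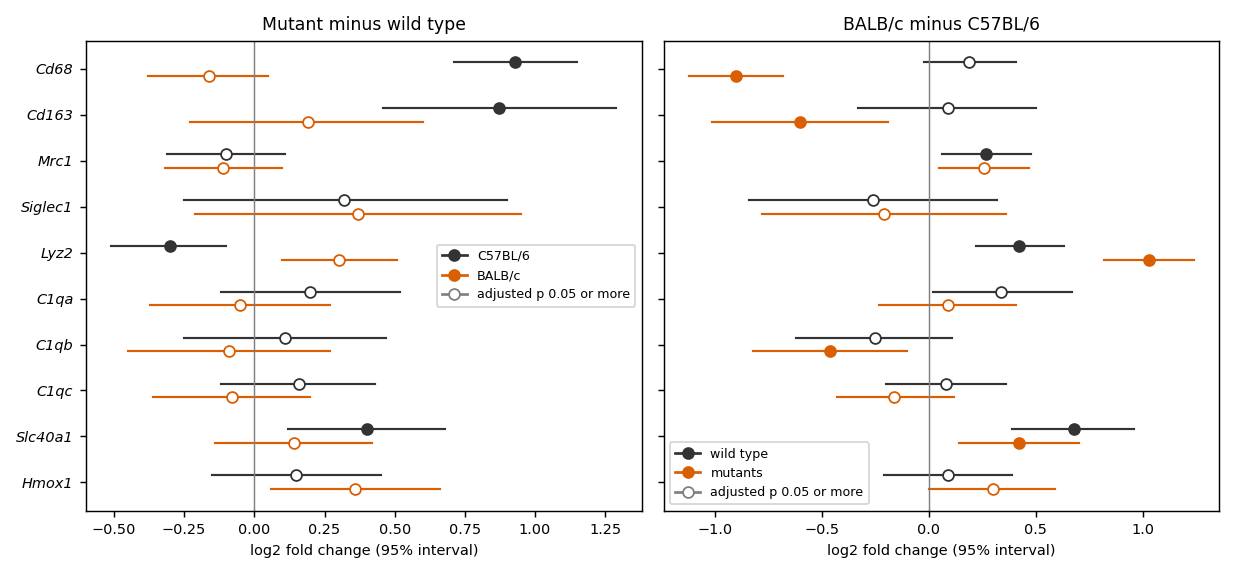
Log2 fold changes of the 10 genes (points) with 95% intervals (lines). The left panel gives mutant minus wild type in each strain and the right panel BALB/c minus C57BL/6 in each genotype; filled points have an adjusted p under 0.05. On the left, filled points are Cd68, Cd163, Lyz2 and Slc40a1 in C57BL/6, and BALB/c has no filled point.

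Lyz2 (chromosome 10, 117277541 to 117282272) encodes lysozyme and is active in monocytes and neutrophils as well as in macrophages. It held 67.6, 62.4 and 53.4 CPM in C57BL/6 wild type and 48.0, 55.3 and 45.3 CPM in C57BL/6 mutant samples. In BALB/c it held 86.6, 79.4 and 80.2 CPM in wild type and 108, 102 and 93.4 CPM in mutant samples. It was lower in C57BL/6 mutants, though mutant replicate 5 exceeded wild type replicate 3, and BALB/c samples of both genotypes were above all C57BL/6 samples. The log2 fold change in C57BL/6 was -0.30 (SE 0.0949, interval -0.51 to -0.10, adjusted p 0.0377, edgeR). This call was lost without wild type replicate 1 (adjusted p 0.172) or 2 (0.0867), without mutant replicate 4 (0.0643) or 6 (0.135), with the Y-linked term (0.0717) and with the 6 C57BL/6 samples alone (0.0943). In BALB/c the ranges were separate in the other direction, with a log2 fold change of 0.30 (SE 0.0940, interval 0.10 to 0.51) that did not pass adjustment (adjusted p 0.235). The difference between the genotype effects was 0.61 (SE 0.134, adjusted p 0.0195), which missed the threshold without C57BL/6 mutant replicate 6 (adjusted p 0.0508). Of the 50-base words of Lyz2, 15.4% also occur in Lyz1, so some reads may be shared. Lyz1 itself was not called for genotype in C57BL/6 (log2 -0.24, adjusted p 0.46) or BALB/c (0.53, adjusted p 0.393).

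C1qa, C1qb and C1qc encode the 3 chains of C1q, which starts the classical complement pathway and is made mostly by macrophages. The genes lie side by side on chromosome 4, C1qb at 136880145 to 136886177, C1qc at 136889802 to 136892914 and C1qa at 136895916 to 136898844. Over the 12 samples they ranged from 11.2 to 17.3 CPM (C1qa), 8.95 to 16.9 CPM (C1qb) and 10.3 to 16.1 CPM (C1qc). None differed by genotype beyond the spread in either strain. In C57BL/6 the log2 fold changes were 0.20 for C1qa (interval -0.12 to 0.52), 0.11 for C1qb (interval -0.25 to 0.47) and 0.16 for C1qc (interval -0.12 to 0.43), and the adjusted p-values ran from 0.336 to 0.658. With total counts in place of TMM scaling these values were 0.01, -0.08 and -0.05. All 3 intervals lie below the fold change of Cd68. With a Y-linked term C1qa was called higher in C57BL/6 mutants (0.39, adjusted p 0.0385). In BALB/c the log2 fold changes were -0.05 (interval -0.37 to 0.27), -0.09 (interval -0.45 to 0.27) and -0.08 (interval -0.36 to 0.20), with adjusted p-values from 0.877 to 0.944. The interaction did not pass for any of the 3 (adjusted p 0.408 to 0.600). C1qa and C1qb deviated together from their group means (r = 0.90 over 12 samples), both being high in BALB/c mutant replicate 16 and BALB/c wild type replicate 15, although their levels over all samples did not run in parallel (r = 0.19). Both values describe log2 CPM of genes from the same libraries.

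Slc40a1 and Hmox1 belong to heme iron recycling: heme oxygenase opens the heme ring and ferroportin exports the iron. Slc40a1 (chromosome 1, 45908070 to 45925594) held 28.3, 29.1 and 24.4 CPM in C57BL/6 wild type and 33.7, 29.6 and 44.6 CPM in C57BL/6 mutant samples. In BALB/c it held 43.0, 47.7 and 40.1 CPM in wild type and 50.1, 46.5 and 47.6 CPM in mutant samples. All 3 C57BL/6 mutants were above the wild type samples, replicate 5 by a small margin, and BALB/c samples were higher except that C57BL/6 mutant replicate 6 fell among them. The C57BL/6 log2 fold change of 0.40 (SE 0.129, interval 0.12 to 0.68, adjusted p 0.0426, edgeR) was lost without wild type replicate 1 (adjusted p 0.0706), 2 (0.0537) or 3 (0.124) or mutant replicate 6 (0.168), with total counts (0.20, adjusted p 0.294) and with the 6 C57BL/6 samples alone (0.133). In BALB/c it was 0.14 (interval -0.14 to 0.42, adjusted p 0.741), and the interaction did not pass (-0.26, SE 0.181, adjusted p 0.365).

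Hmox1 (chromosome 8, 75093618 to 75100593) held 38.3, 38.4 and 43.9 CPM in C57BL/6 wild type, 42.5, 43.4 and 48.2 CPM in C57BL/6 mutants, 39.9, 50.5 and 38.1 CPM in BALB/c wild type and 67.9, 47.9 and 48.8 CPM in BALB/c mutants. Replicate 16 of the BALB/c mutants, the library with the highest sum of muscle genes, was far above the rest. The log2 fold change was 0.15 in C57BL/6 (interval -0.15 to 0.45, adjusted p 0.446) and 0.36 in BALB/c (interval 0.06 to 0.66, adjusted p 0.341), or 0.18 in BALB/c without replicate 16 (adjusted p 0.664).

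The partners of these genes were followed in 6 lists, whose counts stand against 11.3% of all genes called higher and 12.6% called lower in C57BL/6 mutants. In C57BL/6 mutants lineage factors and growth factor receptors were called higher for 8 of 17 genes and lower for 0, with a list median of 0.42 against 0 for all genes. Csf1r, the receptor for Csf1, averaged 203 CPM ± 26.2 (SD, n = 3) in wild type samples. In mutants it averaged 344 CPM ± 26.6 (SD, n = 3), a log2 rise of 0.76 (SE 0.102, adjusted p 0.000742, edgeR). Spi1, which encodes PU.1, rose by 0.70 (adjusted p 0.000205) and Tyrobp, an adaptor for macrophage and osteoclast receptors, by 0.64 (adjusted p 0.000142). Klf4, Cebpb, Csf1 and Fcer1g were also called higher. For Adgre1 the log2 fold change was 0.11 (SE 0.123, adjusted p 0.554). With total counts 5 of the 17 were called higher. In the interaction test, which called 4.58% of all genes lower and 5.46% higher, 5 of the 17 had a lower effect in BALB/c, including Csf1r (-0.75, adjusted p 0.0112), Klf4 (-0.71, adjusted p 0.0331) and Cebpb (-0.77, adjusted p 0.0136), and 0 a higher one. That count was 3 with total counts.

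Of 12 lysosome genes, 8 were called higher in C57BL/6 mutants and 0 lower (median 0.35), led by the proteases Ctsb (0.46, adjusted p 0.00184, edgeR) and Lgmn (0.39, adjusted p 0.00121) and the sterol carrier Npc2 (0.45, adjusted p 0.00317). The count was 5 with total counts and 5 with the C57BL/6 samples alone. In the interaction 7 of the 12 were lower in BALB/c, against 4.58% of all genes, or 4 without C57BL/6 mutant replicate 6 and 3 with total counts. Of 13 complement partners measured, 6 were called higher and 0 lower (median 0.39). C2, a protease precursor of the classical pathway, rose from 19.3 CPM to 32 CPM (0.73, adjusted p 0.00331, edgeR). Itgb2, the shared chain of the complement receptors CR3 and CR4, rose by 0.66 (adjusted p 0.000128). With total counts 3 of the 13 were higher and 1 lower, and without mutant replicate 4 1 was also called lower. C1ra and C1s, the proteases that act with C1q, had log2 fold changes of 0.39 (adjusted p 0.0588) and -0.10 (adjusted p 0.639).

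Of 17 scavenger and engulfment genes tested (Vsig4 did not pass the filter), 2 were called higher and 1 lower in C57BL/6 mutants, with a median of 0.04, shares near those of all genes (11.3% and 12.6%). The efferocytosis receptor Mertk rose by 0.48 (adjusted p 0.000928, edgeR), its bridging ligand Pros1 by 0.80 (adjusted p 6.84e-05), and Mfge8, another bridging protein, fell by 0.27 (adjusted p 0.00982). The lower count was 2 without wild type replicate 3, with DESeq2 or with the Y-linked term. It was 3 without mutant replicate 4 or with total counts and 0 with the C57BL/6 samples alone. With limma-voom 4 were called higher and 3 lower. Of 21 iron and heme genes, 6 were higher and 2 lower (median 0.08). The ferroxidases Cp (1.04, adjusted p 8.26e-05) and Heph (0.36, adjusted p 0.0455) and the heme-sensing repressor Bach1 (0.29, adjusted p 0.0136) were higher, while the quinone reductase Nqo1 (-0.66, adjusted p 0.0305) and biliverdin reductase Blvrb (-0.51, adjusted p 0.00428) were lower. The higher count was 3 without mutant replicate 5, 1 without mutant replicate 6, 2 with the C57BL/6 samples alone and 1 with total counts. The lower count was 1 without wild type replicate 1 or mutant replicate 6 or with the C57BL/6 samples alone, and 4 with total counts. Of 8 erythroid island adhesion genes 2 were higher (Itgav 0.62, adjusted p 0.00227, and Maea 0.34, adjusted p 0.00558) and 2 lower (median 0.09). Icam4, a red cell ligand for integrins, was at 2.41 to 4.83 CPM in wild type samples and at 1.02 to 1.08 CPM in mutants (log2 -1.82, adjusted p 0.000958), and Itga4 had -0.35 (adjusted p 0.0367). The lower count was 1 without wild type replicate 1 or 2 or mutant replicate 4 or 5 and with the Y-linked term, and the higher count was 1 with total counts; with the C57BL/6 samples alone both counts were 1. Vcam1, the adhesion molecule of the central macrophage, held 81.9 CPM in wild type and 85.6 CPM in mutants (0.07, adjusted p 0.70). In BALB/c 0 genes of each of the 6 lists were called for genotype, where 0.136% of all genes were called, and the list medians ran from -0.08 to 0.09.

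Some marker lists of neighbouring cell types differed in the same C57BL/6 comparison, in which 11.3% of all genes were called higher and 12.6% lower. All 9 osteoclast genes were called higher in mutants (median 0.96), and their summed level was 3640 to 4440 CPM in wild type and 7630 to 8530 CPM in mutants, against 4370 to 5210 CPM and 4570 to 5230 CPM in BALB/c wild type and mutants. Dcstamp, needed for osteoclast fusion, rose from 18.5 to 41.9 CPM (1.18, adjusted p 1.07e-05, edgeR), and the collagen-degrading protease Ctsk from 1370 to 2690 CPM (0.98, adjusted p 0.00021). The interaction called 8 of the 9 lower, against 4.58% of all genes. Of 8 osteoblast genes 6 were higher, or 1 with the C57BL/6 samples alone. The sum of the 8 was 67000 CPM in wild type replicate 1 and 115000 CPM in each of wild type replicates 2 and 3. In mutants it was 128000 to 154000 CPM. Most of that sum was Col1a1 (mean 89200 CPM in wild type and 126000 CPM in mutants), which was not called (adjusted p 0.0594, edgeR). Of 11 erythroid genes 8 were lower (median -1.24), with a summed level of 518 to 677 CPM in wild type and 227 to 268 CPM in mutants. Klf1, the erythroid factor, fell from 7.38 to 1.30 CPM (-2.51, adjusted p 8.26e-05). Of 11 neutrophil genes 6 were lower (median -0.74), or 3 without wild type replicate 1, 2 without mutant replicate 6, 10 without mutant replicate 5 and 2 with the C57BL/6 samples alone, with summed levels of 243 to 419 CPM and 125 to 267 CPM. Of 7 monocyte genes 1 was lower (median -0.60), a count that was 0 without wild type replicate 1 or mutant replicate 4, 5 or 6, 3 without wild type replicate 3 and 0 to 3 under the other alternatives. Of 7 B cell genes 3 were lower (median -0.65; summed level 42.6 to 58.7 CPM in wild type and 29.1 to 38 CPM in mutants), or 1 without wild type replicate 1 or mutant replicate 5, 0 with the C57BL/6 samples alone and 5 with DESeq2 or total counts. Of 6 mast cell genes 2 were lower (median -0.16), and of 5 dendritic cell genes tested 0 were called (median -0.11). In BALB/c mutants the B cell sum was 72.3 to 91.1 CPM, against 47.8 to 55.5 CPM in BALB/c wild type. The erythroid sum was 1450 to 1760 CPM, against 851 to 1270 CPM, and the neutrophil sum 833 to 914 CPM against 591 to 711 CPM, with 0 genes called in each list, where 0.136% of all genes were called. The part of these cell types in the levels of the 10 genes was not tested.

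**Figure D3:**
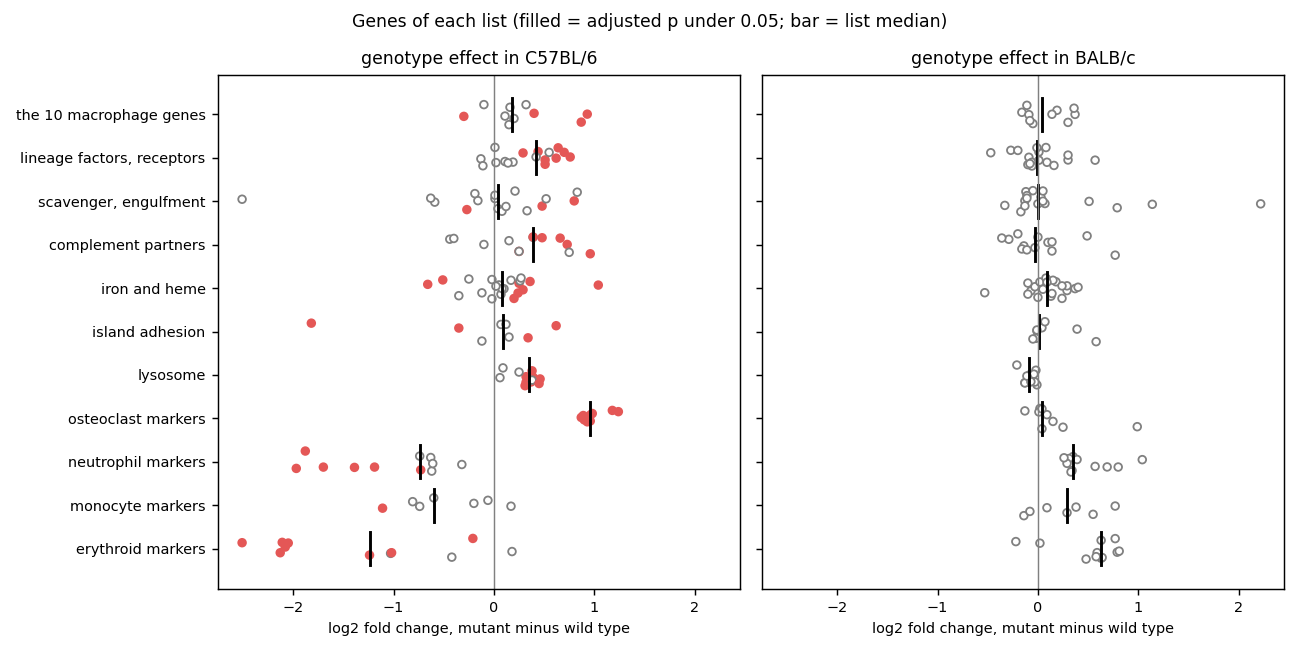
Log2 fold changes, mutant minus wild type, of the genes of each list in C57BL/6 (left) and BALB/c (right). Points are genes, filled where the adjusted p is under 0.05, and bars are list medians. In C57BL/6 the 9 osteoclast genes are filled and to the right of 0 and 8 erythroid genes are filled and to the left, while the BALB/c panel has no filled point.

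Across the 12 samples the 10 genes did not follow 1 course. Of the 45 pairs, Cd68 and Cd163 had the highest r of log2 CPM over all samples (0.88), and for deviations from the group means their r of 0.78 was below that of C1qa and C1qb. Cd68 and Lyz2 ran in opposite directions (r = -0.69). The summed osteoclast level was close to Cd68 (r = 0.96, and 0.83 within groups) and to Cd163 (r = 0.94, and 0.90 within groups), and far from C1qa (r = 0.10, and -0.16 within groups). Within groups Cd68 was closer to the sums of lineage genes (r = 0.94) and of iron and adhesion genes (r = 0.86 each) than to the osteoclast sum, and Mrc1 had an r of 0.73 with the osteoclast sum within groups and -0.32 over all samples. The neutrophil sum was close to Lyz2 (r = 0.97, and 0.70 within groups), as were the erythroid sum over all samples (r = 0.94) but not within groups (r = -0.04), and the monocyte sum (r = 0.93, and 0.78 within groups). Slc40a1 and Hmox1 had r values of 0.14 each with the osteoclast sum. Among 11143 genes with a mean of at least 5 CPM, those most like Cd68 were the lysosomal enzyme gene Gusb (r = 0.980), the vitamin D receptor gene Vdr (r = 0.974) and Ctnnb1 (r = 0.971). Those most like Lyz2 were Fbxo5 (r = 0.979) and the neutrophil granule genes S100a8 (r = 0.974) and S100a9 (r = 0.972). Those most like Cd163 were Dnajc1, Slit3 and Mprip (r = 0.965 to 0.968), and those most like C1qa were Tfeb, a regulator of lysosomal genes, Fkbp8 and Rgl2 (r = 0.884 to 0.943). For Slc40a1 they were Mpg, Pacsin1 and Abhd4 (r = 0.956 to 0.969), and for Hmox1 Ly6a, Stbd1 and Cbfa2t3 (r = 0.869 to 0.922). For Mrc1 they were Zfp212, Pid1 and Gatsl3 (r = 0.917 to 0.926). For Siglec1, C1qb and C1qc the highest r values were 0.829 (Rnpep), 0.887 (Rccd1) and 0.828 (Ptcd1). All these correlations are over 12 samples that share libraries and groups, and they are descriptions only.

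**Figure D4:**
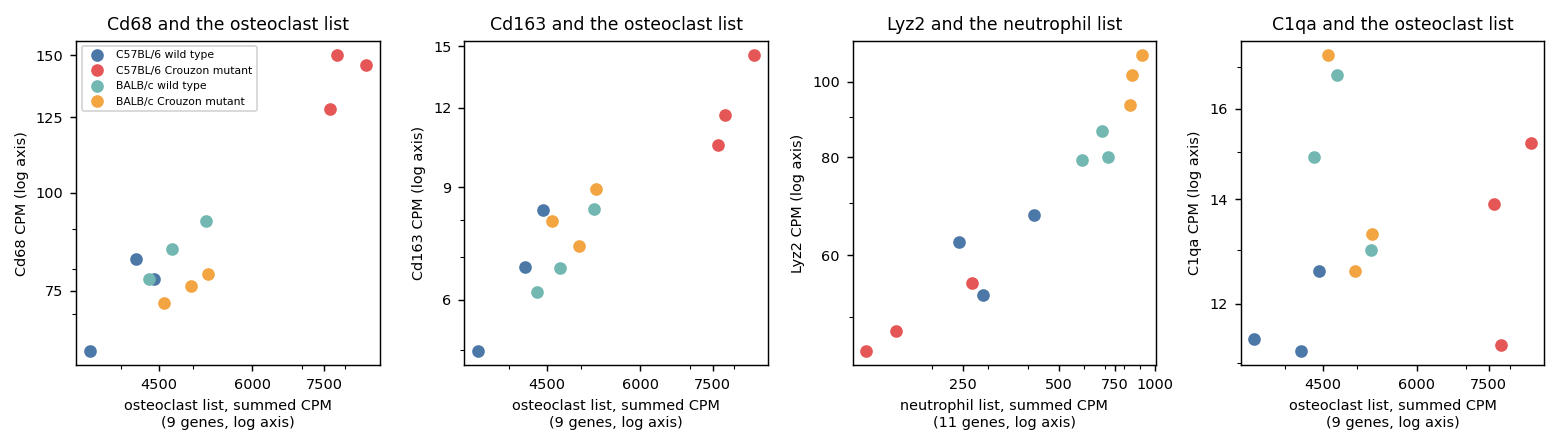
Level of a macrophage gene (vertical, CPM, log axis) against the summed level of a marker list (horizontal, CPM, log axis) in the 12 samples, coloured by group. Cd68 and Cd163 rise with the osteoclast list, with the 3 C57BL/6 mutants at the top right. Lyz2 rises with the neutrophil list, with the BALB/c mutants at the top right, and C1qa shows no common course with the osteoclast list (r = 0.10).

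Between strains, BALB/c wild type samples had more Slc40a1, Lyz2 and Mrc1 than C57BL/6 wild type samples. These 3 of the 10 genes were called higher and 0 lower, against 48.5% of all genes tested (22.8% higher and 25.6% lower), with a median log2 difference of 0.14 against 0. Ranges were separate for 4 of the 10, C1qa being the other one, all higher in BALB/c, against 57.5% of all genes (27.3% higher and 30.1% lower). The differences, BALB/c minus C57BL/6, were 0.68 for Slc40a1 (SE 0.129, adjusted p 0.00136, edgeR), 0.42 for Lyz2 (SE 0.0947, adjusted p 0.00335) and 0.27 for Mrc1 (SE 0.0967, adjusted p 0.0373). Mrc1 missed the threshold without C57BL/6 wild type replicate 1 (adjusted p 0.137) or BALB/c wild type replicate 13 (0.051), 14 (0.0832) or 15 (0.101). With total counts Lyz2 (adjusted p 0.0582) and Mrc1 (0.127) were not called. C1qa had a difference of 0.34 (adjusted p 0.071), called with the Y-linked term (0.56, adjusted p 0.00336), in the fit of the wild type samples alone (adjusted p 0.0361) and without BALB/c wild type replicate 14 (adjusted p 0.046). Cd68 (0.19, adjusted p 0.129) and Cd163 (0.09, adjusted p 0.739) were not called. Lyz1 went the other way from Lyz2 between wild type strains (log2 -0.97, adjusted p 0.00479).

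Among mutants 5 of the 10 genes were called between strains, 2 higher and 3 lower in BALB/c, against 36.9% of all genes (18% higher and 18.9% lower), with a median of -0.03 against 0. Ranges were separate for 5 of the 10, Mrc1, Lyz2 and Slc40a1 higher and Cd68 and Cd163 lower in BALB/c, against 50.2% of all genes (25.4% higher and 24.8% lower). Lyz2 was 1.03 higher on the log2 scale in BALB/c (SE 0.0951, adjusted p 1.19e-05, edgeR) and Slc40a1 0.42 higher (SE 0.127, adjusted p 0.0227). Cd68 was lower by -0.90 (SE 0.0997, adjusted p 4.23e-05), Cd163 by -0.60 (SE 0.188, adjusted p 0.0259) and C1qb by -0.46 (SE 0.165, adjusted p 0.0471, ranges overlapping). The calls of Cd68 and Lyz2 held without each library in turn. Slc40a1 lost its call without C57BL/6 mutant replicate 4 (adjusted p 0.0583) or 5 (0.0777) or BALB/c mutant replicate 16 (0.0672), and lay just inside the threshold without BALB/c mutant replicate 18 (0.05 after rounding). Cd163 lost it without C57BL/6 mutant replicate 6 (0.105) or BALB/c mutant replicate 16 (0.0736) or 17 (0.0939). C1qb lost it without C57BL/6 mutant replicate 4 (0.129) or 6 (0.0915), without BALB/c mutant replicate 17 (0.174) or 18 (0.136), and with total counts (0.165), no low count filter (0.0552) or the mutants alone (0.0652). Mrc1 had a difference of 0.26 (adjusted p 0.0553), with separate ranges. It was called with limma-voom (adjusted p 0.0398), total counts (0.00393), the Y-linked term (0.0362), the mutants alone (0.0474) and without C57BL/6 mutant replicate 6 (0.00715). Hmox1 (0.30, adjusted p 0.111) was called with total counts (0.42, adjusted p 0.0363). The comparisons between strains use the samples of the genotype comparisons, so they are not independent of them.

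Outside the 10 genes, strain differences among scavenger genes included Marco, a receptor of resident macrophages that binds bacteria. In C57BL/6 it ranged from 1.82 to 3.67 CPM in wild type and from 4.36 to 6.46 CPM in mutant samples, and in BALB/c from 0 to 0.124 CPM and from 0.06 to 0.197 CPM (adjusted p 4.34e-05 between wild type strains and 2.85e-05 between mutants, edgeR). Gas6, a ligand of Mertk and Axl, was higher in BALB/c wild type by 0.96 (adjusted p 5.73e-05), while Mertk was lower by -0.48 (adjusted p 0.000208). C1ra (2.09, adjusted p 1.26e-06) and C1s (1.22, adjusted p 3.98e-05), the partners of C1q, were higher in BALB/c wild type, where C1qa, C1qb and C1qc were not called. The ferritin genes Fth1 (0.78, adjusted p 5.71e-06) and Ftl1 (0.55, adjusted p 4.67e-05) were also higher there, with Slc40a1. Of the 21 iron and heme genes 6 were higher and 8 lower in BALB/c wild type (median -0.04), against 22.8% and 25.6% of all genes, the lower ones led by the metal transporters Slc11a1 (-0.77, adjusted p 0.00663) and Slc11a2 (-0.72, adjusted p 3.58e-05) and by Nqo1 (-0.69, adjusted p 0.0131).

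The authors' deposited table of comparisons listed Cd68 (log2 0.86, q 1.05e-05), Cd163 (0.66, q 0.00797) and Slc40a1 (0.37, q 0.0294) as higher in C57BL/6 mutants and gave Lyz2 a q of 0.206 (log2 -0.27). For BALB/c mutants against wild type the q-values in the authors' deposited table ran from 0.271 (Hmox1) to 0.979 (C1qa). For wild type strains the authors' deposited table gave Slc40a1 a q of 4.14e-06 and C1qa a q of 0.00786, both below 0.05, and Lyz2 and Mrc1 q-values of 0.206 and 0.0835. Between mutants the q-values in the authors' deposited table were below 0.05 for Cd68 (1.43e-06), Lyz2 (2.86e-06), Slc40a1 (0.00343), Cd163 (0.0168) and C1qb (0.0296), the 5 genes also called here.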

How the data were processed

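RNA from 12 samples was sequenced. Per the submitters' processing notes, bcl2fastq, TopHat2 2.0.6, HTSeq and DESeq2 were used with build mm10; strand setting and annotation are not given in the sources used here. The authors deposited raw gene counts with RPKM per coding length, and a comparison table holding log2 fold changes and their q-values; 0 value columns belonged to no sample. Counts were tested with edgeR 4.0.16 in R 4.3.3 (TMM; filterByExpr, minimum count 10 and total 15; 1 quasi-likelihood fit of 4 group means; Benjamini-Hochberg). Alternatives were DESeq2 1.42.0, limma-voom (limma 3.58.1), RLE size factors, total counts, no filter, a Y-linked term, only the groups compared and leaving out each sample; applying them to the list counts was chosen after seeing the data. The fits were tested on simulated data. SE is the one implied by the F statistic, and correlations use log2 CPM with a prior count of 2. The members and lists were chosen with earlier results of these data known. All 10 genes are named; of each list, up to 3 genes per direction with adjusted p under 0.05 and a mean of at least 1 CPM, and for likeness the 3 genes with the highest r. Outside this rule, Adgre1, Vcam1, C1ra, C1s, Timd4, Vsig4, Stab1, Folr2, Lyve1, Lyz1 and Col1a1 were added after their values were seen. The epithelial genes at 0 and 4 further lineage genes were added in the same way. Some genes that the rule picks are not reported here. Older symbols were matched for Spi1, Adgre1 and 5 others.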

Additional observations from a re-analysis of the deposited data

Results flagged for a closer look

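The genotype effect of Cd68 differed between the strains: the interaction was -1.09 (SE 0.141, adjusted p 0.00165, edgeR), with C57BL/6 mutants above wild type in 3 of 3 samples and BALB/c ranges that overlapped. The genotype effect of Lyz2 also differed between the strains, with an interaction of 0.61 (SE 0.134, adjusted p 0.0195, edgeR) and opposite signs of the effect, -0.30 in C57BL/6 and 0.30 in BALB/c; only the first passed adjustment on its own, and it did so in 2 of 6 fits that left out 1 library and in 5 of 7 other alternatives (adjusted p up to 0.172 when wild type replicate 1 was left out). The interaction of Lyz2 missed the threshold without C57BL/6 mutant replicate 6 (adjusted p 0.0508).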

How the results depend on the processing

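No paired analysis was possible because the groups share no replicate numbers. Over the 5 comparisons, the single-gene results kept direction and side of the threshold in 311 cases under the other alternatives and in 314 when 1 library was left out; 10 and 23 lost a call, 9 and 2 gained one, and 10 and 21 changed sign. The cause was not tested. Genes called in C57BL/6 (3867) were 1458 with only the groups compared and 1724 (without mutant replicate 6) to 4833 (without mutant replicate 4) when 1 library was left out, also 2184 without wild type replicate 1 and 2285 without mutant replicate 5, and the 10 macrophage genes called there (4) were 1 and 2 to 4. Genes called in BALB/c (22) were 323 with DESeq2, 44 with limma-voom, 4 with total counts, 4 with the Y-linked term, 71 with only the groups compared and 0 to 95 when 1 library was left out (0 without wild type replicate 13 or 15, 95 without 14, and 2 to 6 without a mutant). The interaction (1626 genes) called 2707 with DESeq2 and 624 (without C57BL/6 mutant replicate 6) to 3129 (without C57BL/6 mutant replicate 4) when 1 library was left out, and 751 to 905 without any 1 BALB/c sample, 877 without C57BL/6 mutant replicate 5 and 1019 without C57BL/6 wild type replicate 1, with 1 to 2 macrophage genes, the 1 being without C57BL/6 mutant replicate 6. Macrophage genes called between wild type strains (3, where 48.5% of all genes were called) were 1 with total counts. Between mutants (5, where 36.9% of all genes were called) they were 3 to 4 when 1 library was left out. The shares of all genes under these settings are not given here, so whether the macrophage genes moved with all genes cannot be told. With total counts, signs changed in C57BL/6 for C1qb (-0.08), C1qc (-0.05) and Hmox1 (-0.04), between wild type strains for C1qc (-0.04), Cd163 (-0.01) and Hmox1 (-0.02), and in the interaction for C1qb (0.03), C1qc (0.00) and Mrc1 (0.21); none of these was called. The Y-linked term changed the interaction of Siglec1 to -0.02. Left-out libraries gave ranges that crossed 0 for C1qa (-0.20 to 0.05) and C1qb (-0.29 to 0.04) in BALB/c, Mrc1 (-0.08 to 0.11) and Siglec1 (-0.17 to 0.30) in the interaction, C1qa (-0.05 to 0.20) and Siglec1 (-0.42 to 0.05) between mutants, and C1qc (-0.03 to 0.15), Cd163 (-0.08 to 0.27) and Hmox1 (-0.05 to 0.17) between wild type strains. Total counts moved the median of all genes by -0.196 in C57BL/6, 0.035 in BALB/c, -0.115 and 0.117 between strains in wild type and mutants, and 0.231 in the interaction, and the share of calls that were higher was 13.2% against 47.5% in C57BL/6, 31.2% against 47.1% and 67.8% against 48.8% between strains and 90.5% against 54.4% in the interaction.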
